A study of Homo sapiens with 46 samples.

Results

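The genes described here are 34 human genes of DNA interstrand crosslink repair and homologous recombination, chosen by name as a fixed list of Fanconi anaemia genes, their nucleases, the BRCA1 and BRCA2 axis, strand exchange genes such as XRCC2 and RAD54L, the end resection factors and the kinases that signal to them. All 34 were found among the 60668 gene identifiers of the count tables, and all 34 passed the filter on low counts in every comparison. The groups were the breast cancer line MDA-MB-231 and the glioblastoma line U87MG given the oligonucleotide ASO-1570 at 200 nM or at 50 nM, each set against ASO-CTL at the same dose, and the same lines given siRNA-TRA2B at 10 nM, set against siRNA-CTL, with 3 libraries per group. A breast carcinoma patient-derived xenograft (PDX) given ASO-1570 or ASO-CTL at 50 mg/kg added 5 tumours per group. ASO-1570 is a splice-switching oligonucleotide directed at TRA2B, an SR-like regulator of splicing that binds GA-rich exon sequences. Cells of every line group were transfected with a lipofectamine reagent and harvested after 48 hours, so the controls carry the transfection and an oligonucleotide too. The tumours were injected 3 times weekly for 4 weeks in mice that the labels call immunocompetent, and whether mouse reads were set aside is not given in the sources used here. The line is written MDA-MB231 in the labels, whose cell type entry reads glioblastoma for its samples of the 50 nM and siRNA experiments. Nothing in the labels says that the line libraries came from separate cultures, so p-values measure the spread between libraries only.

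The Fanconi pathway repairs crosslinks that tie both DNA strands together and stall replication forks. Its core complex, a ubiquitin ligase, acts with the ubiquitin-conjugating enzyme UBE2T to mark the FANCI-FANCD2 pair, which then closes around DNA and allows nucleases to unhook the crosslink. The resulting break is resected and repaired by homologous recombination, in which BRCA1, PALB2 and BRCA2 prepare the broken strand and the XRCC2, XRCC3 and RAD54 proteins help it invade an intact copy. Many of these genes are transcribed mostly in dividing cells, in the DNA replication phase of the cycle.

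Depth differed by experiment. Line libraries given 200 nM oligonucleotide held 259.9 to 356.8 M counts, and those given 50 nM held 78.6 to 112.8 M. Lines given siRNA had 75.0 to 111.1 M, and the tumours 75.3 to 109.6 M. Between 200 nM and 50 nM, dose therefore cannot be told apart from experiment and depth. Differences in the counts of genes or events between them are not read as effects of dose. Mitochondrial transcripts made up 1.73% to 3.16% of line libraries, 22.76% to 75.31% in ASO-1570 tumours and 17.65% to 53.89% in control tumours. In MDA-MB-231, the keratin gene KRT18 was at 357 to 928 CPM, against 0.157 to 2.09 CPM in U87MG. CPM are counts scaled to one common library total, after TMM scaling of the library sizes. Other markers were mixed in MDA-MB-231, with the epithelial CDH1 at 3.03 to 9.46 CPM and the mesenchymal VIM at 1700 to 2580 CPM. The glial marker GFAP did not exceed 2.45 CPM in U87MG and reached 3.53 CPM in MDA-MB-231. OLIG2, also glial, was at 1.54 to 3.35 CPM in U87MG and at most 0.0115 CPM in MDA-MB-231. TRA2B averaged 109 CPM with 200 nM ASO-1570 against 198 CPM with control in MDA-MB-231, and 76.7 CPM against 157 CPM in U87MG. With siRNA it averaged 22.2 CPM against 192 CPM with control siRNA in MDA-MB-231 and 25.5 CPM against 181 CPM in U87MG. TRA2B was lower in all 6 line comparisons by edgeR's quasi-likelihood test (log2 changes of -0.76 to -1.13 with ASO-1570, -3.11 and -2.83 with siRNA), and its paralog TRA2A was higher in all 6 (0.64 to 1.55). In the PDX neither passed the test.

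ASO-1570 was accompanied by lower levels of most of these repair genes in both cell lines, at both doses. With 200 nM, 26 of the 34 genes (76.5%) were lower in MDA-MB-231 and none was higher, where 13.6% of all genes tested were lower. In U87MG, 28 (82.4%) were lower and 1 was higher, where 23.9% of all genes were lower and 25.8% higher. With 50 nM, 22 (64.7%) were lower and none higher in MDA-MB-231, against 13.2% of all genes lower, and 30 (88.2%) were lower and 1 higher in U87MG, against 26.7% lower and 27.9% higher. The median log2 change of the 34 was -0.43 and -0.77 at 200 nM and -0.29 and -0.72 at 50 nM (MDA-MB-231 first in each pair), while the median of all genes lay between 0.00 and 0.02. A gene counts as lower or higher where its adjusted p, over all 26159 genes tested at 200 nM or all 23989 at 50 nM, was below 0.05. Fits that leave out 1 library changed the counts in MDA-MB-231: 15 genes passed at 200 nM without control replicate 2, and 13 and 14 at 50 nM without ASO-1570 replicate 1 and replicate 2.

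**Figure D1:**
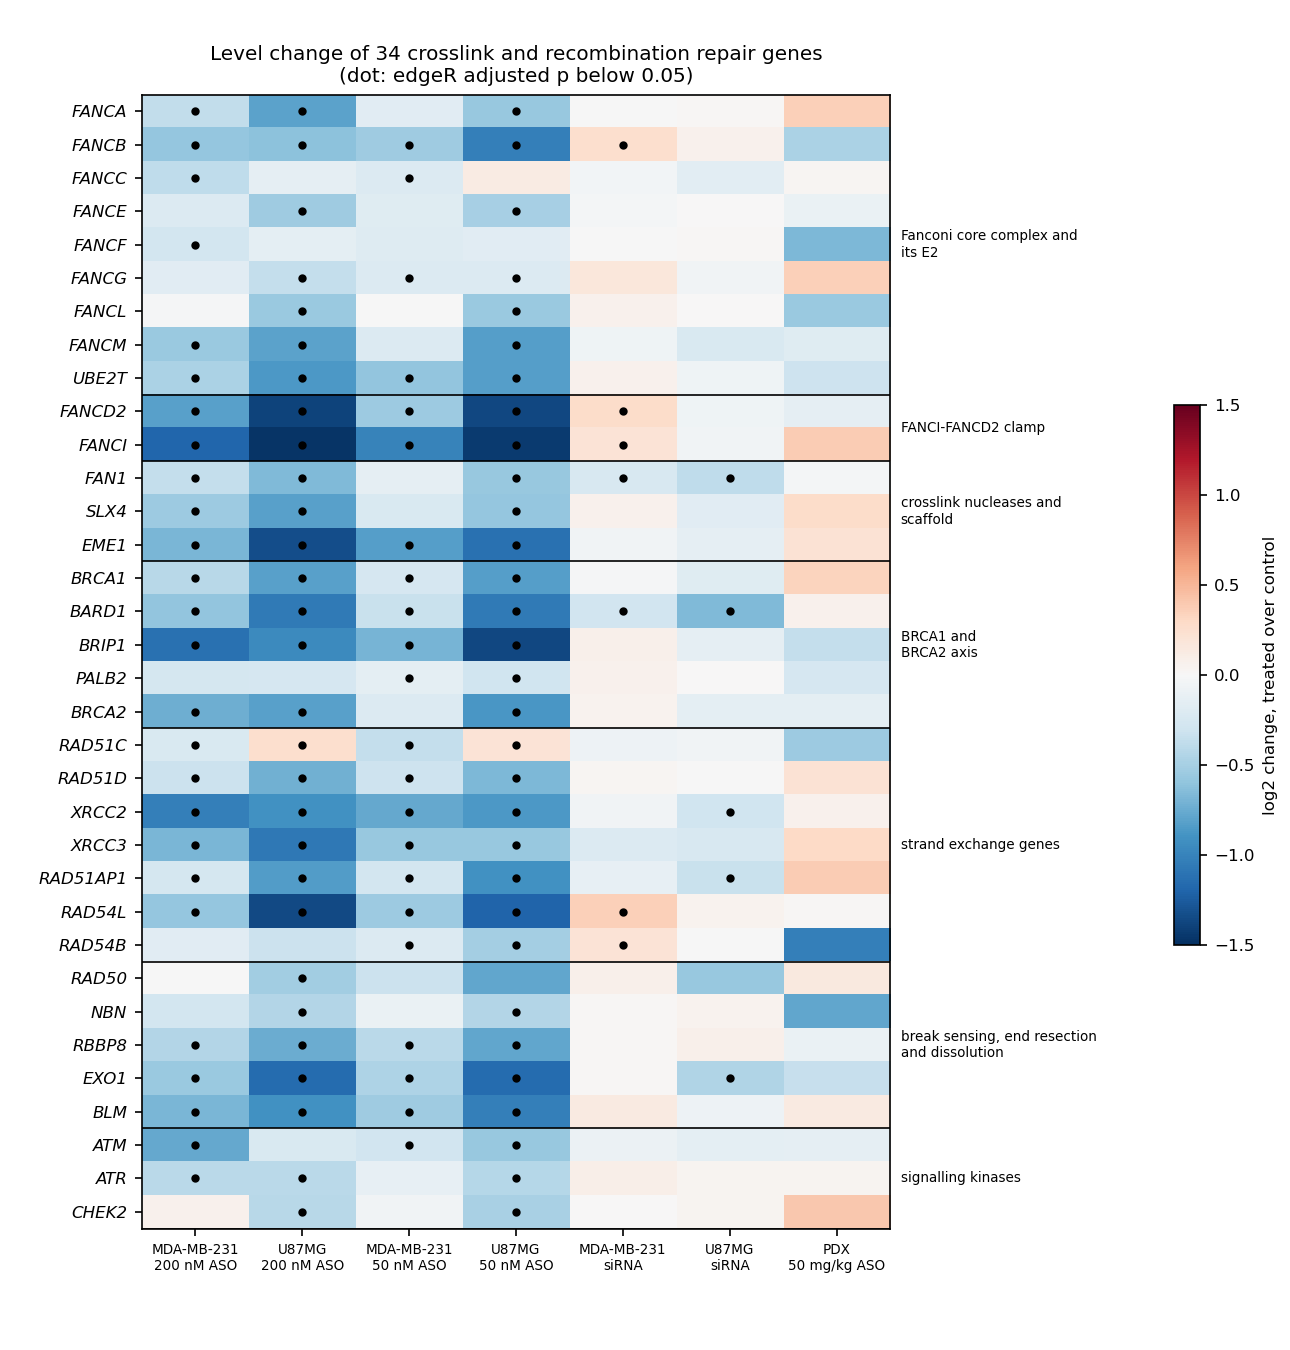
Log2 change (colour; blue lower, red higher) of the 34 repair genes (rows, grouped by role) in the 7 comparisons of ASO-1570 or TRA2B siRNA with its control (columns). Dots mark an edgeR adjusted p below 0.05; the 4 line columns with ASO-1570 hold 26, 28, 22 and 30 genes lower, and the PDX column holds none.

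Many of these genes were lower in more than 1 comparison. Of the 34, 16 were lower in all 4 ASO-1570 line comparisons, where 7.53% of all genes tested in them were: FANCB, UBE2T, FANCD2, FANCI, EME1, BRCA1, BARD1, BRIP1, RAD51D, XRCC2, XRCC3, RAD51AP1, RAD54L, RBBP8, EXO1 and BLM. Both lines shared 22 lower genes at 200 nM and 20 at 50 nM, where 9.34% and 9.49% of all genes were. In MDA-MB-231 19 genes were lower at both doses and in U87MG 27, where 10.8% and 22% of all genes were. Some calls in MDA-MB-231 did not hold when the analysis was varied or 1 library left out: those of FANCF, FANCM, FAN1, SLX4, BARD1, BRCA2, RAD51C, RAD51D, RAD51AP1, ATM and ATR at 200 nM, and of FANCC, FANCG, BRCA1, BARD1, PALB2, RAD51D, XRCC3, RAD51AP1, RAD54B and ATM at 50 nM. RAD51D, for one, lost its call under 8 of 11 alternatives at 200 nM and 5 at 50 nM. Of the 16 genes, 11 kept every call under every alternative. Every one of the 34 was lower in at least 1 of these 4 comparisons. The share of all genes lower in at least 1 was not computed, so this count is not read as particular to the repair genes. Across the 34 genes, the changes at 200 nM and at 50 nM had a Pearson r of 0.78 (Spearman rho 0.70) in MDA-MB-231 and 0.89 (0.89) in U87MG, which describes genes of the same cells and not independent samples. In the MDA-MB-231 libraries with 200 nM ASO-1570, replicate 2 held the lowest CPM of the group for 26 of the 34 genes and replicate 3 the highest for 22; without replicate 2, 25 genes passed.

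FANCI and FANCD2, the subunits of the ubiquitinated clamp, showed the largest changes of any role, with medians of -1.0 and -1.43 at 200 nM and -0.77 and -1.40 at 50 nM in MDA-MB-231 and U87MG. FANCI (chr15:89243949-89317261, plus strand, GRCh38) had 39.2, 37.4 and 46.2 CPM in MDA-MB-231 with 200 nM ASO-1570, against 94.3, 95.7 and 91.3 CPM with control. In U87MG it had 41.3, 33.2 and 36.7 CPM against 98.9, 108 and 102 CPM. The treated libraries were all below the control libraries, 2.29-fold and 2.77-fold lower in the mean, with log2 changes of -1.19 (SE 0.09, edgeR adjusted p = 1.24e-05) and -1.47 (SE 0.09, adjusted p = 5.17e-07). With 50 nM, FANCI had 50.6, 54.7 and 68.3 CPM in treated MDA-MB-231 against 120, 116 and 110 CPM, and 51.4, 44.3 and 54.8 CPM in treated U87MG against 130, 140 and 137 CPM. These groups did not overlap either (log2 changes -1.0 and -1.44, edgeR adjusted p = 7.27e-05 and 1.14e-06).

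FANCD2 (chr3:10026414-10101930, plus strand), the partner whose ubiquitin marks an active pathway, had 19.2, 14.3 and 23.4 CPM in MDA-MB-231 with 200 nM ASO-1570, against 33.4, 33.5 and 33.5 CPM with control. In U87MG it had 20.2, 16.9 and 18.7 CPM against 46.9, 50.6 and 49 CPM. The decrease was 1.77-fold in MDA-MB-231 (log2 change -0.82, SE 0.14, edgeR adjusted p = 0.00131) and 2.62-fold in U87MG (-1.39, SE 0.14, adjusted p = 8.07e-06). At 50 nM the values were 26.3, 29.5 and 34.6 CPM against 43.6, 44.5 and 43.9 CPM in MDA-MB-231, and 27.9, 23.5 and 30.7 CPM against 66.7, 73 and 71.1 CPM in U87MG, again with no overlap. Exons of both genes are overlapped by a gene on the other strand, POLG for FANCI and FANCD2OS for FANCD2, as are exons of 18 of the 34 genes. The kit was stranded, but whether the counting used strand is not given in the sources used here.

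**Figure D2:**
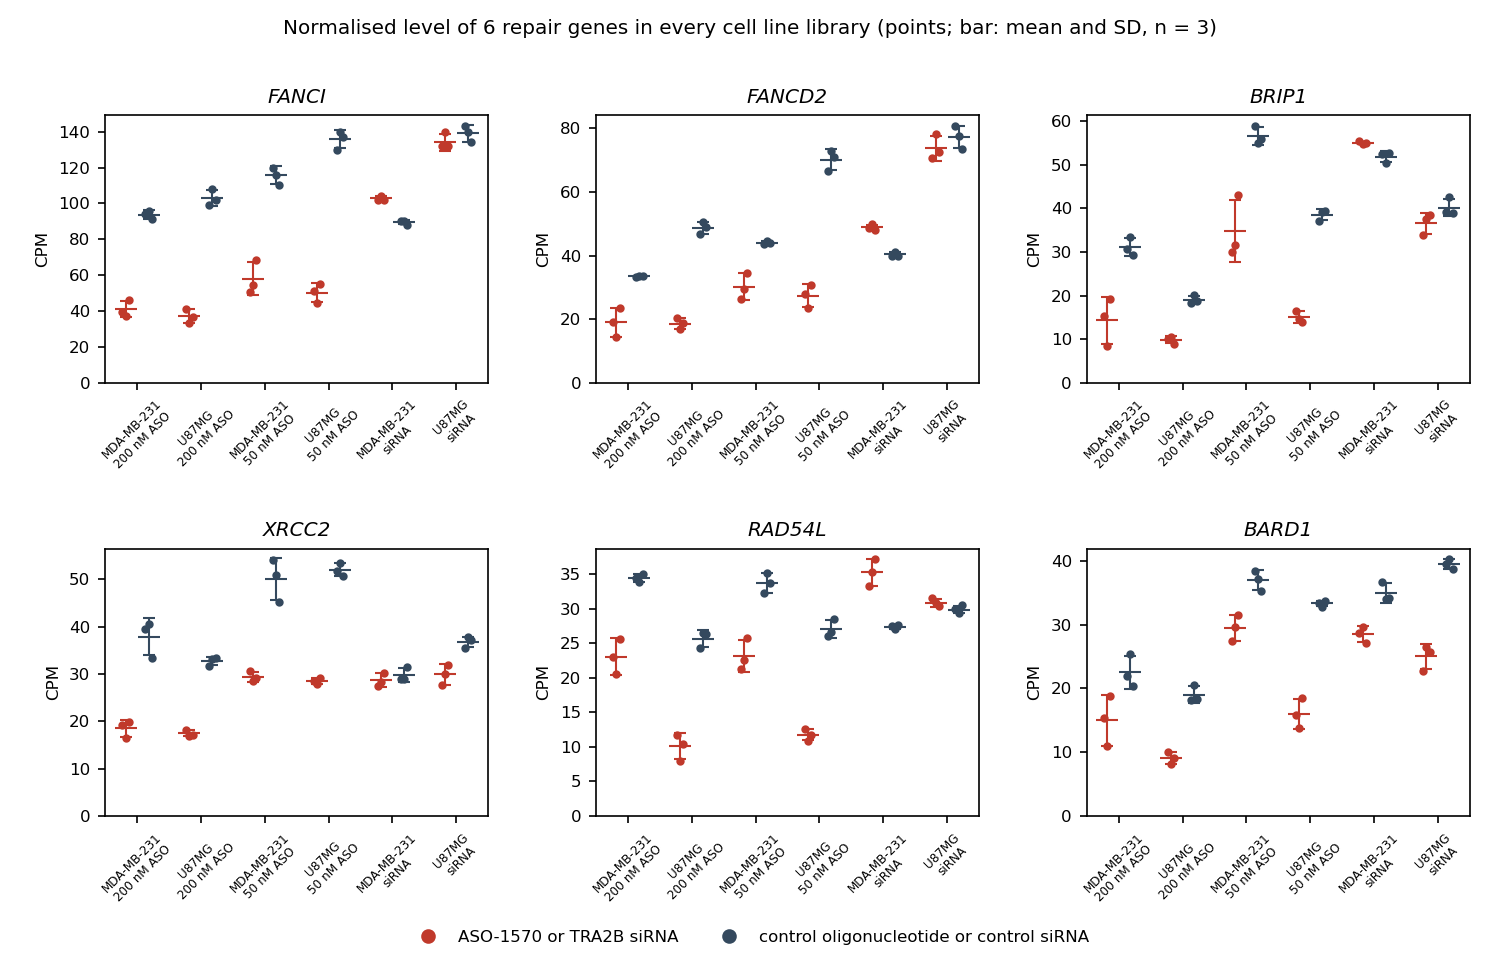
CPM (vertical axis, from 0) of FANCI, FANCD2, BRIP1, XRCC2, RAD54L and BARD1 in each line library, treated left of control for each line and experiment; points are libraries and bars the mean and SD (n = 3). Treated libraries lie below every control library in the 4 ASO-1570 comparisons of each gene; with siRNA, RAD54L lies above its controls in MDA-MB-231 and BARD1 below them in both lines.

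Among the 9 genes of the core complex and its conjugating enzyme, 6 were lower in MDA-MB-231 and 7 in U87MG at 200 nM, and 4 and 7 at 50 nM. UBE2T (chr1:202331657-202341980, minus strand) was lower in all 4. It had 34.9, 37.8 and 33.7 CPM in MDA-MB-231 with 200 nM ASO-1570, against 50.3, 46.5 and 51.9 CPM, and 23.7, 19.2 and 20.4 CPM in U87MG, against 38.2, 39.1 and 37.4 CPM. At 50 nM it was 27.7, 27.8 and 32 CPM against 45.4, 44 and 42.6 CPM in MDA-MB-231, and 20.8, 17.9 and 20.7 CPM against 34.2, 36.5 and 35.3 CPM in U87MG. No treated library reached a control library, and the log2 changes were -0.48, -0.86, -0.59 and -0.83 (edgeR adjusted p = 0.00151, 6.76e-06, 0.000238 and 4.36e-06, in the order MDA-MB-231 and U87MG at 200 nM, then at 50 nM). FANCB, a core subunit encoded on the X chromosome, was lower in the same 4 comparisons (-0.58, -0.61, -0.53 and -1.02).

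FANCA, another core subunit, averaged 34.3 CPM in MDA-MB-231 with 200 nM ASO-1570 against 44.3 CPM with control, and 18 CPM in U87MG against 31.4 CPM. Both differences passed the test (log2 changes -0.37 and -0.80), and at 50 nM only that in U87MG did (-0.17 and -0.57, edgeR adjusted p = 0.305 and 0.000857). FANCM, the fork remodelling translocase that anchors the complex, was lower in 3 of the 4 comparisons (-0.56, -0.80, -0.21 and -0.83), the value in MDA-MB-231 at 50 nM being the one that did not pass. FANCL, the catalytic subunit of the ligase, was lower in U87MG at both doses (-0.56 and -0.56) and had 7.86, 7.65 and 8.86 CPM in MDA-MB-231 with 200 nM against 8.58, 7.89 and 8.24 CPM with control, values that overlap. FANCE was lower in U87MG (-0.53 and -0.50), FANCG in all but MDA-MB-231 at 200 nM (-0.17, -0.36, -0.21 and -0.21), FANCC in MDA-MB-231 (-0.38 at 200 nM and -0.21 at 50 nM, with -0.13 and 0.12 in U87MG, which did not pass), and FANCF in MDA-MB-231 at 200 nM (-0.28).

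All 3 nuclease and scaffold genes were lower in both lines at 200 nM, and 1 in MDA-MB-231 and 3 in U87MG at 50 nM. EME1 (chr17:50373220-50381483, plus strand), the partner of the MUS81 endonuclease, had 6.24, 5.45 and 7.04 CPM in MDA-MB-231 with 200 nM ASO-1570 against 9.97, 9.45 and 10.9 CPM with control, and 5.16, 4.44 and 4.54 CPM in U87MG against 11.9, 11.7 and 12 CPM. It was 1.62-fold lower in MDA-MB-231 (log2 change -0.69, edgeR adjusted p = 0.000874) and 2.52-fold lower in U87MG (-1.33, adjusted p = 2.41e-06), and lower again at 50 nM (-0.83 and -1.12). SLX4, the scaffold that gathers structure-specific nucleases, changed by -0.55 and -0.82 at 200 nM and by -0.23 and -0.58 at 50 nM, and FAN1, a nuclease recruited to ubiquitinated FANCD2, by -0.36, -0.66, -0.13 and -0.57. For both genes the value in MDA-MB-231 at 50 nM did not pass the test and the other 3 did. SLX4 in MDA-MB-231 with 200 nM ASO-1570 varied between libraries, at 14.4, 9.13 and 14.5 CPM against 18, 18.6 and 18.8 CPM.

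In the BRCA1 and BRCA2 axis, 4 of 5 genes were lower in each line at 200 nM, and 4 in MDA-MB-231 and 5 in U87MG at 50 nM. BRIP1 (chr17:61681266-61863521, minus strand), the helicase bound by BRCA1, had 15.2, 8.50 and 19.2 CPM in MDA-MB-231 with 200 nM ASO-1570 against 30.6, 33.4 and 29.4 CPM with control, and 10.1, 10.4 and 8.93 CPM in U87MG against 18.4, 20.1 and 18.7 CPM. The treated MDA-MB-231 libraries spread widely, but the highest of them stayed below the lowest control (log2 change -1.12, SE 0.21, edgeR adjusted p = 0.0026; U87MG -0.96, SE 0.21, adjusted p = 0.0024). At 50 nM BRIP1 had 29.9, 31.7 and 43.1 CPM against 58.9, 55.1 and 55.9 CPM in MDA-MB-231, and 16.5, 14.7 and 14 CPM against 37.1, 39.2 and 39.4 CPM in U87MG, where it was 2.56-fold lower.

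BARD1 (chr2:214725646-214809711, minus strand), the obligate partner of BRCA1 in its ubiquitin ligase, had 15.4, 10.9 and 18.8 CPM in MDA-MB-231 with 200 nM ASO-1570 against 21.9, 25.4 and 20.3 CPM, and 10.1, 8.15 and 9.13 CPM in U87MG against 18.2, 20.5 and 18.3 CPM. The gap was narrow in MDA-MB-231 (log2 change -0.59, SE 0.17, edgeR adjusted p = 0.022) and wider in U87MG (-1.06, SE 0.17, adjusted p = 0.000226). BRCA1 itself (chr17:43044295-43170245, minus strand) had 35.4, 30.4 and 38.1 CPM against 46.7, 47.5 and 45.2 CPM in MDA-MB-231, and 45.3, 39.1 and 41.4 CPM against 68.1, 78 and 74.1 CPM in U87MG, at 200 nM. It was lower at both doses in both lines (-0.42 and -0.81, then -0.25 and -0.83), with groups that did not overlap. BRCA2, a mediator of strand exchange, changed by -0.73 and -0.82 at 200 nM and by -0.20 and -0.87 at 50 nM, where only U87MG passed. PALB2, the bridge between BRCA1 and BRCA2, had the smallest values of the role (-0.26, -0.25, -0.15 and -0.30) and passed only at 50 nM.

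Of the 7 strand exchange genes, 6 were lower in MDA-MB-231 and 5 in U87MG at 200 nM, and 7 and 6 at 50 nM. XRCC2 (chr7:152644779-152676165, minus strand), a subunit of a complex that assists strand exchange, had 19.3, 16.4 and 19.8 CPM in MDA-MB-231 with 200 nM ASO-1570 against 39.6, 40.6 and 33.4 CPM, and 18.2, 17 and 17.2 CPM in U87MG against 31.8, 33.1 and 33.3 CPM. At 50 nM it had 30.6, 28.5 and 29.2 CPM against 54.1, 50.9 and 45.2 CPM in MDA-MB-231, and 28.6, 27.8 and 29.2 CPM against 51.8, 53.4 and 50.7 CPM in U87MG. It was lower in both lines at both doses (log2 changes -1.03 and -0.91, then -0.77 and -0.86, edgeR adjusted p of at most 2.63e-05), and neither line difference passed the test.

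RAD54L (chr1:46247688-46278473, plus strand), a DNA motor that drives strand invasion, had 23, 20.5 and 25.7 CPM in MDA-MB-231 with 200 nM ASO-1570 against 34.5, 33.9 and 35 CPM, and 11.7, 8.03 and 10.5 CPM in U87MG against 24.3, 26.5 and 26.4 CPM. The decrease was larger in U87MG (log2 changes -0.58 and -1.35; -0.54 and -1.20 at 50 nM). XRCC3, which acts later in recombination, changed by -0.69 and -1.07 at 200 nM and -0.57 and -0.57 at 50 nM, RAD51D by -0.32, -0.72, -0.31 and -0.67, and RAD51AP1, which stimulates strand exchange, by -0.26, -0.84, -0.28 and -0.91. All of these passed the test. RAD54B, a relative of RAD54L, passed at 50 nM only (-0.20 and -0.51).

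RAD51C (chr17:58692573-58735611, plus strand), a subunit shared by the XRCC2 and XRCC3 complexes, moved in opposite directions in the lines. It had 15, 16.6 and 15.4 CPM in MDA-MB-231 with 200 nM ASO-1570 against 18.5, 18.9 and 17.6 CPM with control, but 36, 39.7 and 37.2 CPM in U87MG against 32.7, 32 and 30.5 CPM. At 50 nM the values were 13.7, 14.2 and 14.1 CPM against 17.9, 18 and 17.9 CPM in MDA-MB-231, and 32.2, 37.2 and 33.8 CPM against 30.2, 30.9 and 29 CPM in U87MG. No pair of groups overlapped, and each change passed the test: lower in MDA-MB-231 (log2 changes -0.23 and -0.36, edgeR adjusted p = 0.026 and 0.00133) and higher in U87MG (0.25 and 0.20, adjusted p = 0.00779 and 0.0141). 3 of these 4 calls did not hold under every alternative. That in MDA-MB-231 at 200 nM was lost under 6 of 11 alternatives (adjusted p up to 0.127), among them without ASO-1570 replicate 1, control replicate 1 or control replicate 2. The call in U87MG was lost at 200 nM without control replicate 3 (adjusted p = 0.273), and at 50 nM under 4 of 11 alternatives (up to 0.258), among them without ASO-1570 replicate 2, ASO-1570 replicate 3 or control replicate 3. The difference between the lines was -0.47 at 200 nM and -0.56 at 50 nM (edgeR adjusted p = 0.00385 and 0.000944) and passed under every alternative run. It was the one member of the 34 that was higher in any ASO-1570 comparison.

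Of the 5 genes of break sensing, end resection and dissolution, 3 were lower in MDA-MB-231 and all 5 in U87MG at 200 nM, and 3 and 4 at 50 nM. EXO1 (chr1:241847967-241895148, plus strand), the exonuclease of long-range resection, had 24.9, 22.4 and 28.1 CPM in MDA-MB-231 with 200 nM ASO-1570 against 37.4, 36.3 and 37.6 CPM, and 12.7, 10.3 and 11.7 CPM in U87MG against 23.8, 27.4 and 26.3 CPM. RBBP8, which encodes the resection factor CtIP, had 71.6, 67.4 and 71.9 CPM against 94.2, 97 and 94.3 CPM in MDA-MB-231, and 55.3, 48.6 and 52.5 CPM against 84.6, 91.1 and 85.9 CPM in U87MG. Treated and control libraries of both genes were apart at both doses, with log2 changes of -0.56, -1.16, -0.46 and -1.15 for EXO1 and -0.44, -0.74, -0.40 and -0.78 for RBBP8. BLM, the helicase that dissolves joint molecules, changed by -0.68, -0.91, -0.53 and -1.02 and passed in all 4 comparisons. NBN, a subunit of the complex that senses broken ends, was lower in U87MG (-0.44 at both doses). Its changes in MDA-MB-231 did not pass (-0.28 and -0.10), and the difference between the lines passed at 50 nM (0.34) and not at 200 nM (0.16, edgeR adjusted p = 0.471). RAD50, the partner of NBN, was lower in U87MG at 200 nM (-0.52), while at 50 nM its libraries scattered, at 55.9, 109 and 92.4 CPM in treated U87MG against 167, 136 and 138 CPM, and no change passed.

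Of the 3 kinase genes, 2 were lower in each line at 200 nM, and 1 in MDA-MB-231 and 3 in U87MG at 50 nM. ATR, the kinase that responds to stalled forks, was lower at 200 nM in both lines (-0.40 and -0.41) and at 50 nM in U87MG (-0.43). ATM, the kinase that responds to broken ends, had 40, 23.7 and 47.1 CPM in MDA-MB-231 with 200 nM ASO-1570 against 60, 71.5 and 57 CPM with control, where it was lower (-0.77, edgeR adjusted p = 0.011), and it was also lower at 50 nM in both lines (-0.29 and -0.57), but did not pass in U87MG at 200 nM (-0.23, adjusted p = 0.331). CHEK2, a kinase activated by ATM, was lower in U87MG only (-0.42 and -0.49) and had log2 changes of 0.07 and -0.05 in MDA-MB-231, where the groups overlapped.

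The effect of ASO-1570 was compared between the lines by an interaction term. At 200 nM, 13 of the 34 genes had a higher log2 change in MDA-MB-231 and 1 a lower one, relative to U87MG, where 11.5% and 12.1% of all genes did. At 50 nM it was 19 higher and 2 lower, where 14.3% and 13.9% of all genes did. A higher change here means a smaller decrease in MDA-MB-231, or no decrease there. The largest such differences at 200 nM were those of RAD54L (0.77, SE 0.17), EME1 (0.64), EXO1 (0.60) and RAD51AP1 (0.58), and at 50 nM those of FANCD2 (0.82, SE 0.15), BARD1 (0.73), EXO1 (0.68) and BRCA2 (0.68), with edgeR adjusted p of 0.00191 to 0.0102 for these. RAD51C at both doses and FANCC at 50 nM differed the other way. Without MDA-MB-231 control replicate 2, U87MG ASO-1570 replicate 2 or U87MG ASO-1570 replicate 3, 9 genes passed at 200 nM.

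**Figure D3:**
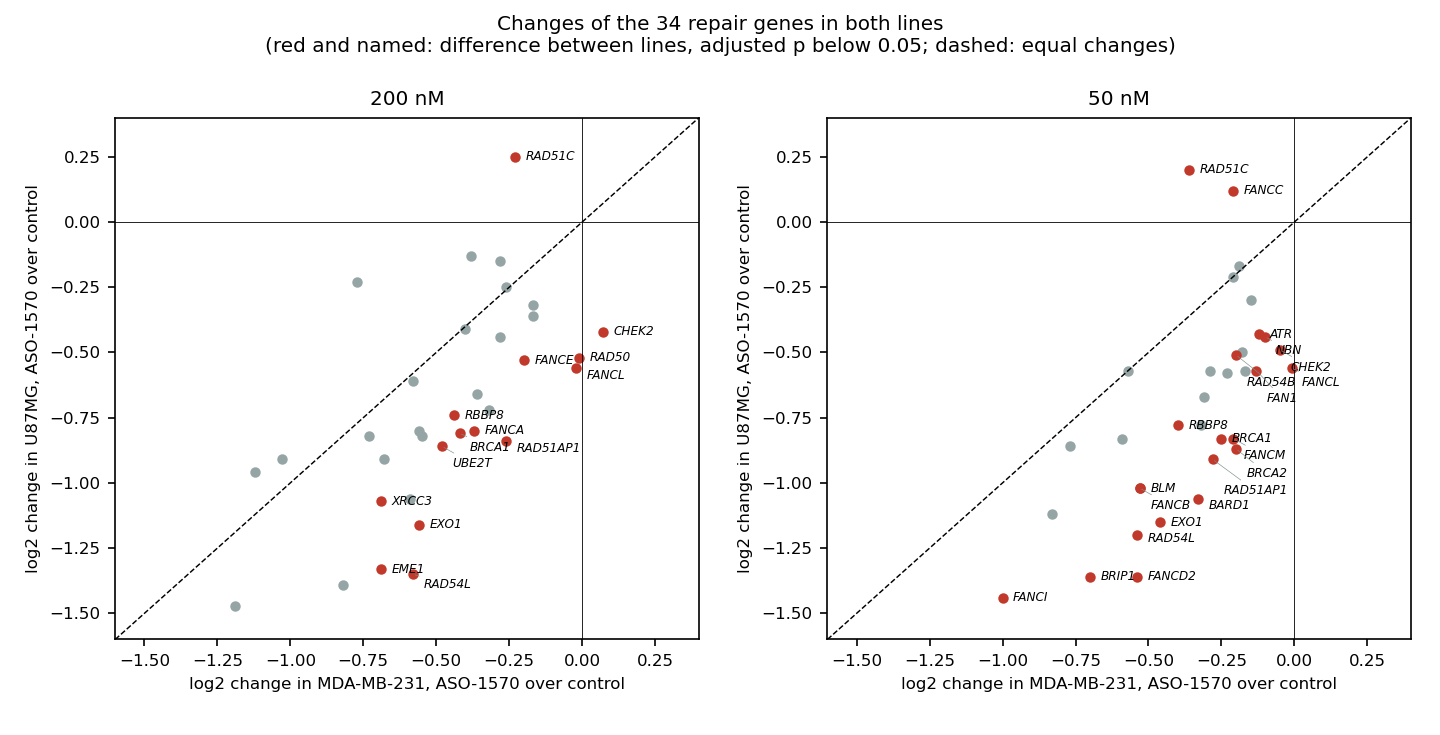
Log2 change of the 34 genes with ASO-1570 in MDA-MB-231 (horizontal) and U87MG (vertical), at 200 nM (left) and 50 nM (right). Red, named genes differed between the lines; most lie below the dashed line of equal changes, that is, they fell further in U87MG, and RAD51C lies above it.

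Genes that mark replication and cell division moved in the same libraries. The 28 such genes taken included the MCM helicase subunits, PCNA, CCNB1, MKI67 and FOXM1. Of them, 23 were lower in MDA-MB-231 and 28 in U87MG at 200 nM, and 24 and 28 at 50 nM, with none higher. Of all genes, 13.6% and 23.9% were lower at 200 nM and 13.2% and 26.7% at 50 nM. The median log2 changes of the 28 were -0.41 and -0.94 at 200 nM and -0.41 and -0.94 at 50 nM. With siRNA, 1 of the 28 was higher and 1 lower in MDA-MB-231, where 3.65% of all genes were higher and 3.6% lower. In U87MG 8 (28.6%) were lower, where 2.6% of all genes were. The part of these 28 genes in the result for the repair genes was not tested. In bulk RNA, fewer cells in the replication phase and less RNA per cell cannot be told apart.

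Other genes of the same pathways, 60 in all, changed less uniformly. At 200 nM, 23 (38.3%) were lower and none higher in MDA-MB-231, and 36 (60.0%) were lower and 8 higher in U87MG. At 50 nM, 23 (38.3%) were lower and 2 higher, then 36 (60.0%) lower and 8 higher. Of all genes, 13.6%, 23.9%, 13.2% and 26.7% were lower and 11.7%, 25.8%, 10.1% and 27.9% higher, in the same order. Higher calls were thus a smaller share of the 60 than of all genes. The median log2 changes of the 60 were -0.19, -0.33, -0.14 and -0.30. MCM8, a helicase subunit of recombination, changed by -0.56, -0.95, -0.51 and -0.82 (MDA-MB-231 and U87MG at 200 nM, then at 50 nM), USP1, the enzyme that removes ubiquitin from FANCD2, by -0.49, -0.58, -0.41 and -0.62, and RFWD3, a ubiquitin ligase of crosslink repair, by -0.68, -0.66, -0.45 and -0.62. SHLD2, a subunit of the shieldin complex that limits resection, changed by -0.56, -0.67, -0.38 and -0.65, and CLSPN, the adaptor between ATR and its target CHEK1, by -0.51, -1.0, -0.49 and -1.0. In U87MG, RAD52 (0.38 and 0.53) and RNF8 (0.45 and 0.50), a mediator and a ubiquitin ligase of the chromatin response, were among the 8 that were higher at each dose.

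Knockdown of TRA2B by siRNA was accompanied by fewer changes of these genes. In MDA-MB-231, 5 of the 34 genes were higher and 2 lower, where 3.65% of all genes were higher and 3.6% lower. In U87MG none was higher and 5 (14.7%) were lower, where 2.6% were lower and 1.6% higher. The median log2 change of the 34 was 0.02 and -0.06. The counts in MDA-MB-231 were small and moved when any 1 of the 6 libraries was left out: 3 genes passed without control replicate 1, and 4 without control replicate 2 or 3 or without siRNA replicate 1, 2 or 3.

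The genes higher with siRNA in MDA-MB-231 were FANCB, FANCD2, FANCI, RAD54L and RAD54B, all of them lower with 50 nM ASO-1570 in that line. The siRNA calls of FANCB and RAD54B were lost under 8 and 7 of 11 alternatives, among them without any 1 library. The 50 nM call of RAD54B was lost under 8 of 11. RAD54L had 33.3, 35.3 and 37.2 CPM with siRNA-TRA2B against 27.5, 27.1 and 27.7 CPM with control siRNA (log2 change 0.36, SE 0.04, edgeR adjusted p = 0.000641). FANCD2 had 48.7, 49.8 and 48.1 CPM against 40, 41.2 and 39.9 CPM (0.28, adjusted p = 0.00309), and FANCI 102, 104 and 102 CPM against 90.3, 90 and 88.1 CPM (0.20, adjusted p = 0.00397). The groups did not overlap, and the increases were smaller in size than the decreases of the same genes with ASO-1570. In U87MG the same 3 genes had log2 changes of 0.05, -0.07 and -0.05 with overlapping groups.

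BARD1 and FAN1 were lower with siRNA in both lines. BARD1 had 28.7, 29.6 and 27.1 CPM in MDA-MB-231 with siRNA-TRA2B against 36.7, 34 and 34.1 CPM, and 22.7, 26.5 and 25.7 CPM in U87MG against 39.5, 40.3 and 38.7 CPM. It was 1.23-fold lower in MDA-MB-231 (log2 change -0.29, edgeR adjusted p = 0.0119) and 1.58-fold lower in U87MG (-0.66, adjusted p = 0.000235). FAN1 had 24.5, 23.6 and 22.5 CPM against 27.1, 27 and 29.5 CPM in MDA-MB-231 (-0.24, adjusted p = 0.0359), and 32.9, 28.1 and 31 CPM against 40.8, 40.4 and 38.1 CPM in U87MG (-0.38, adjusted p = 0.00642). In MDA-MB-231 the FAN1 call was lost without any 1 of the 6 libraries, with a replicate block and with no low count filter (adjusted p up to 0.113), and the BARD1 call without control replicate 1 (0.0663). In U87MG, EXO1 (23.3, 25.6 and 25.9 CPM against 34, 34.8 and 33.4 CPM; -0.45), RAD51AP1 (-0.33) and XRCC2 (-0.30) were lower as well. Of the 60 other pathway genes, UIMC1, a subunit of a BRCA1-binding complex, was the one lower with siRNA in both lines (-0.32 and -0.20).

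Of the 16 genes lower in all 4 ASO-1570 comparisons, 8 passed in neither line with siRNA: UBE2T, EME1, BRCA1, BRIP1, RAD51D, XRCC3, RBBP8 and BLM. Few of all genes passed with siRNA, 3.65% higher and 3.6% lower in MDA-MB-231 and 1.6% and 2.6% in U87MG. Not passing is therefore not particular to these 8. BRIP1 had 55.4, 54.8 and 55.1 CPM in MDA-MB-231 with siRNA-TRA2B against 52.6, 50.5 and 52.7 CPM, and 33.9, 37.5 and 38.4 CPM in U87MG against 39.1, 42.6 and 39 CPM. The lines lay on opposite sides of their controls and neither change passed (log2 changes 0.08 and -0.14, edgeR adjusted p = 0.366 and 0.166).

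The 50 nM ASO-1570 effect minus the siRNA effect was tested in a joint fit of both experiments, in which experiment and treatment cannot be told apart. The difference was lower for 16 of the 34 genes and higher for none in MDA-MB-231, where 9.43% of all genes were lower and 6.38% higher, and lower for 27 and higher for 2 in U87MG, where 22.6% were lower and 17.5% higher. FANCI had the largest difference in both lines, -1.19 in MDA-MB-231 and -1.42 in U87MG (SE 0.11 each, edgeR adjusted p = 3.72e-07 and 7.58e-09). RAD54L (-0.90 and -1.27), FANCD2 (-0.82 and -1.32) and BRIP1 (-0.78 and -1.25) came next. The genes with a higher difference in U87MG were FANCC (0.25) and RAD51C (0.21). BARD1 differed by -0.03 in MDA-MB-231 (adjusted p = 0.95) and by -0.42 in U87MG (adjusted p = 0.00472), and FAN1 by 0.12 and -0.23, which did not pass.

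**Figure D4:**
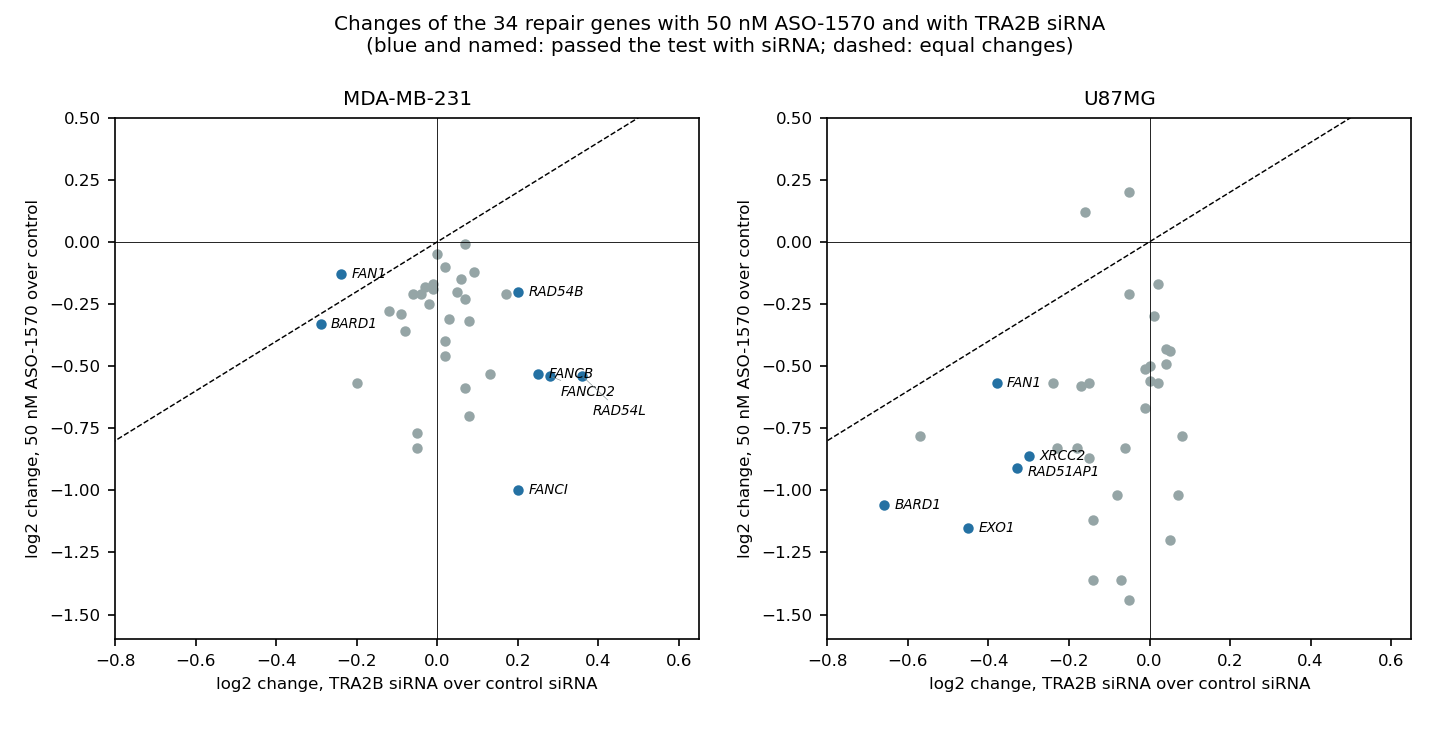
Log2 change of the 34 genes with TRA2B siRNA (horizontal) and with 50 nM ASO-1570 (vertical), in MDA-MB-231 (left) and U87MG (right). Blue, named genes passed the test with siRNA; most points lie below the dashed line of equal changes, and BARD1 is lower on both axes in both lines.

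With siRNA, the log2 change exceeded that of U87MG in MDA-MB-231 for EXO1 (0.47), FANCD2 (0.34) and FANCI (0.24), 3 of the 34 genes, where 0.402% of all genes were higher and 0.125% lower. This count fell to 1 without MDA-MB-231 control replicate 1, 2 or 3, MDA-MB-231 siRNA replicate 2 or 3, U87MG control replicate 1 or 2, or U87MG siRNA replicate 1 or 3.

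In control libraries of the 200 nM experiment, 12 of the 34 genes were higher and 9 lower in MDA-MB-231 than in U87MG, where 32.7% of all genes were higher and 35.4% lower, so the counts are not particular to the repair genes. FANCE was higher in the MDA-MB-231 controls (log2 difference 2.62, SE 0.08, edgeR adjusted p = 3.06e-11) and FANCL lower (-2.28, SE 0.09, adjusted p = 1.69e-10), followed by CHEK2 (-1.33), FANCM (1.19), ATM (1.17) and FANCC (1.13). Levels per kilobase were taken over all exons annotated for a gene, used or not, so the order of genes depends on the annotation. On this scale UBE2T (1652 bases) had the highest control level in every line group (21.4 to 30 CPM per kb). FANCL had 3.42 to 4.25 CPM per kb in MDA-MB-231 and 16.6 to 18.3 in U87MG, and FANCE 6.94 to 11.8 in MDA-MB-231 and 1.24 to 1.91 in U87MG. RAD51D, over 11304 bases of annotated exon, had 1.34 to 1.68 CPM per kb in the line controls, among the lowest. FANCL and FANCE were lower with ASO-1570 in U87MG at both doses, and neither passed in MDA-MB-231.

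In the PDX, 0 of the 34 genes and 0.0% of the 23812 genes tested passed the edgeR test, and DESeq2 also called 0 genes. At an unadjusted p below 0.05, edgeR gave 2053 of the 23812 genes and DESeq2 3194. Of the 34, 3 were below it with edgeR: RAD54B, FANCL and NBN. This share is near that of all genes with edgeR, so the count is not particular to the repair genes. FANCL had 22.3, 21.9, 15.9, 17.5 and 19.2 CPM in ASO-1570 tumours against 24.4, 24.7, 31.5, 33.8 and 28.5 CPM in control tumours. The change did not pass the test (log2 change -0.56, SE 0.17, edgeR adjusted p = 0.487). RAD54B had a log2 change of -1.03 and NBN of -0.78, and neither passed. FANCI, lower in all 4 line comparisons with ASO-1570, had 45.5, 52.9, 77.1, 87.1 and 106 CPM in ASO-1570 tumours against 41.9, 72.5, 45.2, 48 and 76.1 CPM in control tumours (0.38, adjusted p = 0.532). The median log2 change of the 34 was -0.01, and with mitochondrial genes removed the count stayed at 0.

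Splicing of the repair genes was read from percent spliced in (PSI). PSI is the share of the form that includes an exon or exon part, among both forms of an event with given flanks. It is not a share of all transcripts of the gene. A change passed where limma's adjusted p was below 0.05 and mean PSI differed by at least 0.10. With 200 nM ASO-1570, 6 of 408 tested events of these genes passed in MDA-MB-231 (1.47%, where 1.42% of all events did) and 88 of 481 in U87MG (18.3%, where 19.6% did). With 50 nM it was 1 of 327 in MDA-MB-231 (0.306%, where 0.194% did) and 55 of 408 in U87MG (13.5%, where 13.8% did). These shares are near those of all events, so the counts are not particular to the repair genes. In U87MG, 66 of the 481 (13.7%) and 42 of the 408 (10.3%) were lower, where 14.1% and 9.95% of all events tested were. At 200 nM and 50 nM, U87MG shared 36 events (40.9% of 88 and 65.5% of 55), all in the same direction. This overlap was not computed for all events, so it is not read as particular to the repair genes. Some events are versions of the same exon with other flanks. With siRNA and in the PDX none passed by limma. None of all 62184, 63623 and 66854 events tested passed there either (MDA-MB-231, U87MG and the PDX), so this is not particular to the repair genes. An unadjusted limma p below 0.05 was found for 19 of 357 repair gene events in MDA-MB-231, 20 of 378 in U87MG and 17 in the PDX. Of all events, 3657, 3395 and 2768 had one, shares near those of the repair genes.

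The counts of events depended on single libraries. In U87MG at 200 nM, 48, 45 and 45 events passed without control replicate 1, 2 and 3, and at 50 nM 21, 17 and 18. In MDA-MB-231 at 200 nM, 2, 1 and 11 passed without ASO-1570 replicate 1, 2 and 3, and 0, 1 and 0 without control replicate 1, 2 and 3. At 50 nM 3 passed there without ASO-1570 replicate 3, and 0 without any other library. With siRNA in MDA-MB-231, 1 passed without control replicate 3. The number of reads behind a PSI value is unknown, and with 3 against 3 libraries an exact permutation test of a single event cannot give a p below 0.1.

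The exons printed here are 5 of those whose values follow, chosen with the values known; other events, those of CHEK2 among them, changed by as much or more. They are printed as RNA-sense DNA from the GENCODE 29 transcripts (GRCh38), 5′ to 3′. Capitals mark AGAA, the core motif bound by TRA2 proteins, searched as these letters on the transcript strand. The first 4 were included less with ASO-1570 and the last was included more. They are ATR exon 2 (92 bases, chr3:142568063-142568154, minus strand), ATM exon 21 (76 bases, chr11:108272532-108272607, plus strand), BRIP1 exon 11 (155 bases, chr17:61784270-61784424, minus strand), FANCI exon 25 of transcript FANCI-204 (185 bases, chr15:89306010-89306194, plus strand) and RAD51D exon 5 (135 bases, chr17:35106988-35107122, minus strand), all coding.
ATR exon 2: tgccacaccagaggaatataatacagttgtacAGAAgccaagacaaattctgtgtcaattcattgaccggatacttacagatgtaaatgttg
ATM exon 21: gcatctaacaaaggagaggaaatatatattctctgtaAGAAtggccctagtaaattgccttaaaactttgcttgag
BRIP1 exon 11: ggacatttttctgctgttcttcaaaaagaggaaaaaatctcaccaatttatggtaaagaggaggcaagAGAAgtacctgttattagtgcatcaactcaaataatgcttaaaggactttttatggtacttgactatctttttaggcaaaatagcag
FANCI exon 25: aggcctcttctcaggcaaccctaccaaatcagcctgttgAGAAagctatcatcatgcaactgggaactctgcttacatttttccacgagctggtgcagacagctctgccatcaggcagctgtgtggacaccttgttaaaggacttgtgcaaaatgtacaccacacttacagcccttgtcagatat
RAD51D exon 5: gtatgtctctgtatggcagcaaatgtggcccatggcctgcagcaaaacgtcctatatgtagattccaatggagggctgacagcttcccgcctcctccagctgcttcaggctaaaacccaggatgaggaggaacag

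Each of the 4 exons included less holds AGAA 1 time and RAD51D exon 5 does not hold it. Other exons named below did not all divide this way. ATM exon 32, included less, holds none, and FANCD2 exon 40 and the PALB2 exon, included more, hold 1 and 4. CHEK2 exons 7, 8 and 12, included less, hold 2, 1 and 2, and the shorter form of RAD51D exon 5, included more, holds none. Among internal coding exons of the same length, AGAA occurs in 55.9% for ATR exon 2, 52.3% for ATM exon 21, 65.3% for BRIP1 exon 11, 70.5% for FANCI exon 25 and 61.8% for RAD51D exon 5, so its presence is common and its absence not rare, and nothing is read from it over 5 chosen exons. The lengths of the first 4 exons are not multiples of 3, so skipping any of them shifts the reading frame. No transcript of GENCODE 29 skips ATR exon 2, ATM exon 21 or BRIP1 exon 11 between their neighbours, and 1 transcript classed as subject to nonsense-mediated decay skips FANCI exon 25.

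ATR exon 2, with a PSI near 1 in control libraries, was included less in both lines. Its PSI was 0.292, 0.390 and 0.553 in MDA-MB-231 with 200 nM ASO-1570 against 0.970, 0.985 and 1 with control, and 0.294, 0.206 and 0.203 in U87MG against 0.950, 1 and 0.971. At 50 nM it was 0.616, 0.526 and 0.757 against 1, 0.989 and 1 in MDA-MB-231, and 0.357, 0.214 and 0.375 against 0.991, 1 and 1 in U87MG. Treated libraries were below control libraries in all 4 comparisons, and 3 passed the test (differences of -0.573, -0.739 and -0.682, limma adjusted p = 0.0299, 0.000357 and 0.002), the exception being MDA-MB-231 at 50 nM (-0.363, adjusted p = 0.135). With siRNA the exon was included at 0.979 or more in every library of both groups and both lines, too narrow a range to enter the test.

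In ATM and BRIP1 the change was larger in U87MG. The PSI of ATM exon 21 was 0.344, 0.065 and 0.360 in U87MG with 200 nM ASO-1570 and 0.318, 0.184 and 0.377 with 50 nM, against 1 in every control library. In MDA-MB-231 it was 0.621, 0.541 and 0.788 at 200 nM against 1, 1 and 0.991. The differences passed in U87MG (-0.744 and -0.707) and not in MDA-MB-231 (-0.347, limma adjusted p = 0.0805). BRIP1 exon 11 had a PSI of 0.427, 0.443 and 0.430 in U87MG with 200 nM ASO-1570 and 0.440, 0.370 and 0.815 with 50 nM, again against 1 in every control library (-0.567 and -0.458, adjusted p = 0.000285 and 0.0496). In MDA-MB-231 at 200 nM, where the level of BRIP1 was lower too, exon 11 was included at 0.980, 0.792 and 0.981 against 1, 1 and 1, which did not pass. Whether these exons differ between the lines was not tested.

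ATM exon 32 (133 bases, chr11:108294927-108295059) was lower in U87MG too, at 0.505, 0.465 and 0.390 against 0.971, 1 and 0.968 at 200 nM (-0.526), and by a like amount at 50 nM (-0.480). The flanking exons of this event are not its neighbours in the annotation. CHEK2 exon 7 (54 bases, chr22:28710006-28710059) was at 0.380, 0.456 and 0.261 in MDA-MB-231 with 200 nM ASO-1570 and at 0.405, 0.303 and 0.567 in U87MG, against 1 in all control libraries (-0.634 and -0.575). CHEK2 exon 8 (62 bases) was lower in the same comparisons (-0.474 and -0.204), and exon 12 (116 bases) in U87MG at 50 nM (-0.533). For these CHEK2 events, too, no annotated transcript joins the exon to both flanks. A 3-base acceptor choice in BRCA1 and a 321-base donor choice in CHEK2 also passed in 1 comparison each, but their PSI ran from 0 to 1 between libraries of other groups.

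RAD51D exon 5 was included more. In an event whose flanks are not its annotated neighbours, it had a PSI of 0.509, 0.651 and 0.628 in MDA-MB-231 with 200 nM ASO-1570 against 0.222, 0.278 and 0.253, and 0.416, 0.287 and 0.537 in U87MG against 0.122, 0.147 and 0.205 (0.345 and 0.255, limma adjusted p = 0.0306 and 0.0364). Between its annotated neighbours it was at 0.976, 0.907 and 0.922 in U87MG with 50 nM against 0.611, 0.557 and 0.570 (0.356). The shorter form of the exon (74 bases) was also included more in U87MG at 50 nM, at 0.933, 0.837 and 0.880 against 0.378, 0.348 and 0.371 (0.518).

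Further events that passed in U87MG at both doses are named here after their values were seen. FANCI exon 25 was at 0.767, 0.696 and 0.690 with 200 nM ASO-1570 against 0.965, 0.967 and 0.968, and at 0.804, 0.564 and 0.730 with 50 nM against 0.957, 0.956 and 0.977. In MDA-MB-231 it was at 0.633, 0.442 and 0.629 against 0.863, 0.883 and 0.813 at 200 nM, a difference of like size (-0.285) that did not pass. FANCD2 exon 40 (75 bases) went the other way in U87MG, at 0.993, 1 and 0.976 against 0.769, 0.783 and 0.799 (0.206; 0.136 at 50 nM). A PALB2 exon that lies in no coding transcript (134 bases, chr16:23638459-23638592) was included more in U87MG (0.398, 0.393 and 0.326 against 0.116, 0.185 and 0.149 at 200 nM; difference 0.222, and 0.305 at 50 nM). The final 103 bases of RAD51C exon 1 were used less (0.711, 0.566 and 0.594 against 0.903, 0.934 and 0.891 at 200 nM; -0.286, and -0.271 at 50 nM), in the line where the RAD51C level was higher.

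**Figure D5:**
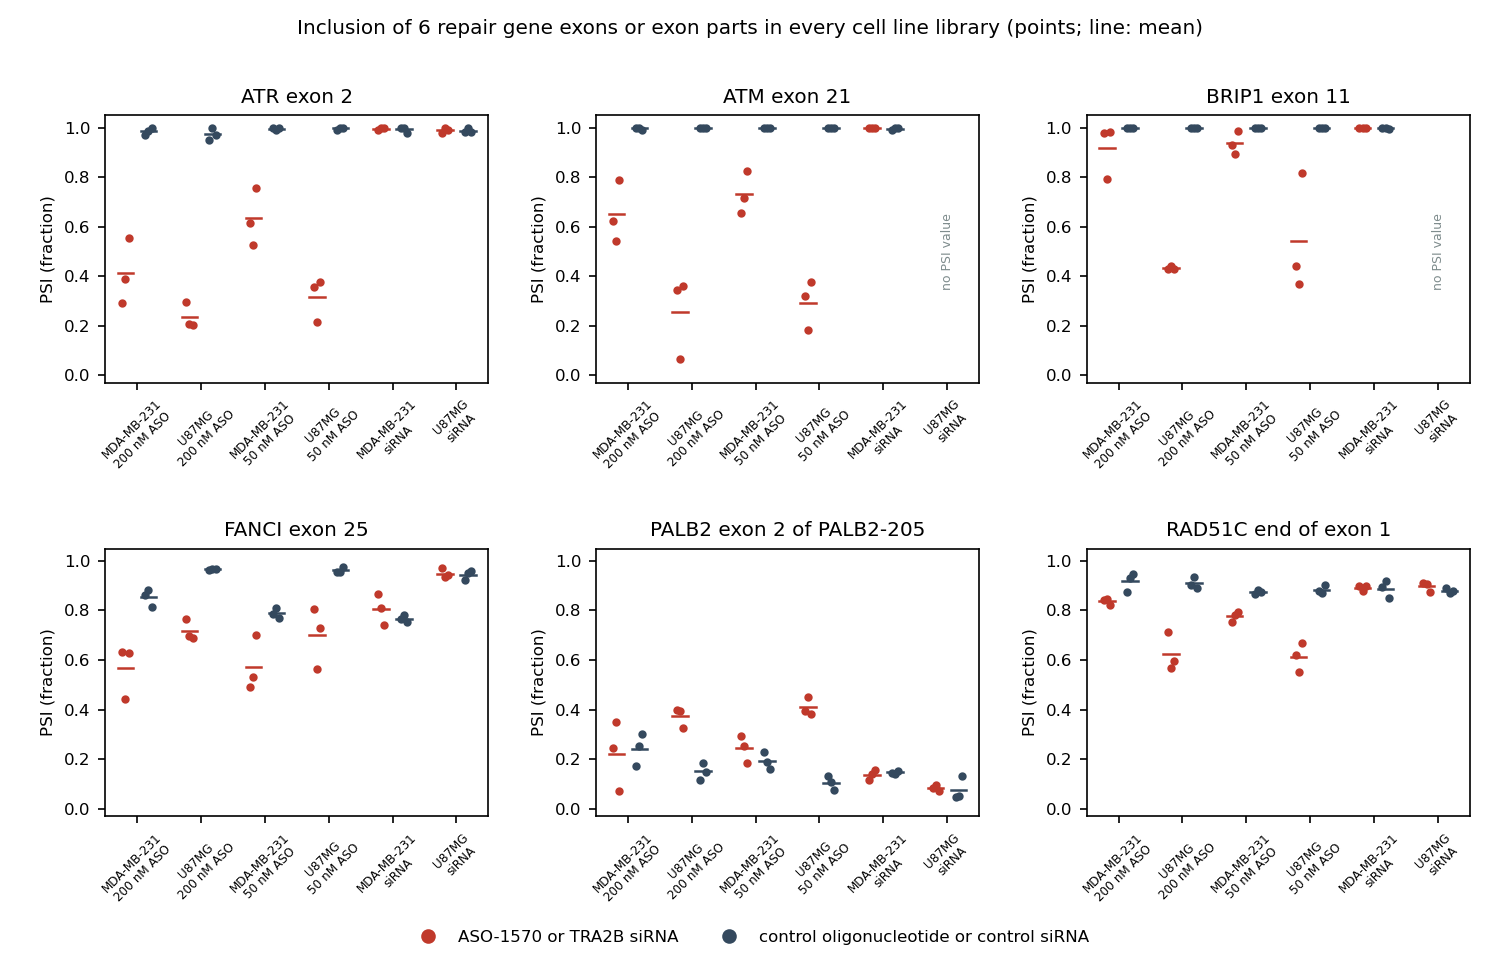
PSI (vertical axis, 0 to 1) of 6 exons or exon parts of repair genes in each line library, treated left of control; points are libraries, lines means (n = 3). ATR, ATM and BRIP1 exons sit near 1 in controls and lower with ASO-1570, furthest in U87MG, the PALB2 exon is higher in U87MG, and siRNA and control siRNA libraries overlap or lie close; the ATM and BRIP1 events have no value in U87MG with siRNA.

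In U87MG at 200 nM, 24 genes had an event that passed and 20 of them (83.3%) were lower in level, as were 82.4% of all 34, the others being ATM, PALB2, RAD51C and RAD54B. At 50 nM it was 19 of 20 (95%) against 88.2% of all 34, the other being RAD51C. Whether changes of exon and level were linked was not tested. In MDA-MB-231 at 200 nM, events of 4 genes passed and 3 of these (75%) were lower in level, as were 26 (76.5%) of all 34. Of all events, 1.42% passed there, against 19.6% in U87MG.

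Promoters of the members were searched for elements of the kind bound by E2F factors, which drive replication genes. The search was chosen after the members were seen to move together, and whether such factors had a part in the changes was not tested. The letters TTTCCCGC, TTTCGCGC, TTTGGCGC and TTTGCCGC were searched on both strands in 250 bases before to 50 after each RefSeq start (GRCh38.p14), which 31 of the 34 genes had. Some genes have more than 1 start. Of the 40 promoters of these genes, 5 (12.5%) held at least 1 of the motifs, against 3.31% of 35116 promoters of all genes. They were promoters of EXO1, FANCA, FANCC, FANCD2 and XRCC2. Of the 16 genes lower in all 4 ASO-1570 comparisons, EXO1, FANCD2 and XRCC2 had a match, and FANCI had no RefSeq start to search. FANCC had 2 matches. Elements spelled otherwise were not counted, and the promoters of all genes were not matched to these in base content. Nothing is read from these counts about a part of E2F factors. The promoters of FANCD2 (chr3:10026187-10026486, plus strand) and XRCC2 (chr7:152676092-152676391, minus strand), genes that were lower in all 4 ASO-1570 comparisons, are shown with the match in capitals, which reads TTTCCCGC on the other strand.
FANCD2 promoter: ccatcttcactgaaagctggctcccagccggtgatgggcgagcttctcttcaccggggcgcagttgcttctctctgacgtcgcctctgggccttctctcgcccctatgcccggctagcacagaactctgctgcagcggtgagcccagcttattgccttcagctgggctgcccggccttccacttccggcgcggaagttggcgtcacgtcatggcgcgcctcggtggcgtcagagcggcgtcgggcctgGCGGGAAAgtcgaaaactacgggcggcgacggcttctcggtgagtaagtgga
XRCC2 promoter: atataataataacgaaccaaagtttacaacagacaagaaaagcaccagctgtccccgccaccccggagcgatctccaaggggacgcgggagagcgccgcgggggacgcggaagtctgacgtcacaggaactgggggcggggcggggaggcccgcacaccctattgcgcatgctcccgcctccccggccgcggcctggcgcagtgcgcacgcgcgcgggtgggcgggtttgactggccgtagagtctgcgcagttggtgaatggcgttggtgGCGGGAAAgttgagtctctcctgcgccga
The match begins at position -2 from the start in FANCD2 and at position 21 in XRCC2.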

How the data were processed

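RNA-seq of 46 libraries in 14 groups was used. The deposited gene tables hold raw counts per gene, and the deposited splicing tables hold PSI as a fraction from 0 to 1, from rMATS per the file names, with no read counts. Per the submitters' processing notes, the authors used FastQC, MultiQC, Trimmomatic, STAR and StringTie on GRCh38; versions are not given in the sources used here. Per the labels' protocols, libraries were stranded and read as pairs of 151 bases.

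Gene counts were compared by edgeR 4.0.16 under R 4.3.3 (filterByExpr, TMM, quasi-likelihood test, all groups of a table in 1 fit, Benjamini-Hochberg adjustment over all genes, threshold 0.05); SEs derive from the F statistic, and CPM uses TMM-scaled library sizes. Symbols came with 60295 of 60668 identifiers, and positions from GENCODE 29 for 58561. For PSI, limma 3.58.1 with a trend was fitted to the 2 groups compared, for events with all values present and a range of at least 0.05. Both procedures were tested on simulated data. DESeq2 1.42.0 was an alternative. Two-sided tests were used throughout.

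The members and lists were chosen with earlier results of these data known, so nothing here is independent support for patterns seen before. Genes described in full were those lower or higher in both lines of an experiment and, per comparison, the 5 members with the smallest adjusted p; of the other pathway genes up to 5 per comparison were eligible, and of splicing events those that passed, with the 5 largest differences where there were more. RAD52 and RNF8 in U87MG were named after their values were seen, as were the events so marked. Copies of the 200 nM tables were not used. The values of a further pathway gene are not reported here. No library duplicated another.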

Additional observations from a re-analysis of the deposited data

Results flagged for a closer look

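The change with ASO-1570 differed between MDA-MB-231 and U87MG for the following repair genes, by an interaction term in edgeR's quasi-likelihood fit; values are the log2 change in MDA-MB-231 minus that in U87MG. At 200 nM the core complex and clamp pathway genes FANCL (0.54), FANCA (0.43), UBE2T (0.38) and FANCE (0.33) were among them. The recombination genes were RAD54L (0.77), RAD51AP1 (0.58), BRCA1 (0.39), XRCC3 (0.37) and RAD51C (-0.47). The nuclease and resection genes were EME1 (0.64), EXO1 (0.60), RAD50 (0.51) and RBBP8 (0.30), and CHEK2 differed by 0.49.

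At 50 nM the Fanconi genes that differed were FANCD2 (0.82), FANCM (0.61), FANCL (0.55), FANCB (0.50), FAN1 (0.45), FANCI (0.44) and FANCC (-0.32). The recombination genes were BARD1 (0.73), BRCA2 (0.68), BRIP1 (0.66), RAD54L (0.66), RAD51AP1 (0.62), BRCA1 (0.58), RAD54B (0.31) and RAD51C (-0.56). EXO1 (0.68), BLM (0.50), RBBP8 (0.38) and NBN (0.34) of break sensing, resection and dissolution differed as well, as did CHEK2 (0.44) and ATR (0.30). With siRNA the difference passed for EXO1 (0.47), FANCD2 (0.34) and FANCI (0.24).

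Among 68 sets of 5 tumours (34 genes, ASO-1570 and control), 7 held a tumour far from the others by Dixon's test, and chance flags about 1 in 20 sets. In ASO-1570 tumours the highest FANCD2 value was 43.0 CPM, the highest PALB2 value 16.4 CPM, the highest NBN value 74.4 CPM and the lowest EME1 value 11.1 CPM. In control tumours the lowest FANCA value was 29.1 CPM, the highest FANCC value 15.6 CPM and the highest RAD54B value 12.5 CPM.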

How the results depend on the processing

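Results here are counts of the 34 genes, or of their splicing events, that passed. No direction reversed. DESeq2 size factors kept every such gene count within 1.5 times except the siRNA line difference (3 genes as reported), which gave 1; it gave 5 with the DESeq2 Wald test, 0 without the low count filter and 1 with a replicate block. With a log2 change of at least 0.5 also required, 15 genes passed in MDA-MB-231 at 200 nM, 10 in MDA-MB-231 at 50 nM, 0 in MDA-MB-231 and 1 in U87MG with siRNA, 9 for ASO-1570 minus siRNA in MDA-MB-231, and 6, 11 and 0 for the line differences at 200 nM, at 50 nM and with siRNA. A fit of the 2 groups alone gave 16 in MDA-MB-231 at 200 nM, and no low count filter gave 4 in MDA-MB-231 with siRNA. Of the called genes, 15 of 26 and 27 of 29 at 200 nM, 12 of 22 and 30 of 31 at 50 nM, and 3 of 7 and 4 of 5 with siRNA kept their call under every alternative (MDA-MB-231, then U87MG).

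Equal replicate numbers did not pair the line libraries, where deviations of same-numbered libraries correlated at -0.0883 to 0.102. In the PDX they correlated at -0.209 to 0.774. There, ASO-1570 replicate 1 (0.774) and replicate 5 (0.42) correlated best with the control of their own number, and the others did not. With a replicate block, 17 genes passed in MDA-MB-231 at 200 nM and 8 for the line difference at 200 nM; of splicing events 0 and 46 passed at 200 nM and 0 and 14 at 50 nM (MDA-MB-231, then U87MG).

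On the logit of PSI, 13 and 5 events passed in MDA-MB-231 at 200 nM and 50 nM; without the range filter 1 and 0. A PSI difference of at least 0.20 left 38 and 29 events in U87MG.

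Leaving out 1 library gave 15 to 26 genes in MDA-MB-231 and 28 to 30 in U87MG at 200 nM, 13 to 22 and 30 to 31 at 50 nM, 3 to 4 and 4 to 5 with siRNA, 9 to 21, 18 to 24 and 1 to 3 for the line differences at 200 nM, at 50 nM and with siRNA, 14 to 17 and 27 to 31 for ASO-1570 minus siRNA, and 20 to 23 for the control lines. It gave 0 to 11 and 45 to 88 events at 200 nM, 0 to 3 and 17 to 67 at 50 nM, and 0 to 1 in MDA-MB-231 with siRNA. The cause of these shifts was not tested. The depth behind PSI is unknown.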
